A study of Mus musculus with 20 samples.

Results

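The comparison described here is VIPKO against wild-type (WT) mouse lung after chronic hypoxia. Its members were chosen by label: the 5 libraries titled VIPKO hypoxia and the 5 titled WT hypoxia, 10 of the 20 libraries in the series, and all 21658 genes that passed a filter on low values. The study sequenced RNA of whole lung from C57BL/6 WT mice and from mice lacking the gene for vasoactive intestinal peptide (VIP), kept for 4 weeks at 10% oxygen (hypoxia) or in room air at 21% oxygen (normoxia). The other 10 libraries, 6 WT and 4 VIPKO in normoxia, entered the same fit and gave the genotype difference in room air. The titles and the series text call the animals knockout, whereas the genotype label says knockdown. The labels do not describe the allele further, and whole lung is a mixture of all its cell types. Nothing in the labels says how animals map to libraries, and if libraries share animals the p-values measure a technical spread only.

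VIP is a neuropeptide that relaxes airway and pulmonary vascular smooth muscle through the receptors VPAC1 and VPAC2, which raise cyclic AMP. It also damps inflammation and the growth of vascular smooth muscle cells. Chronic hypoxia constricts the small pulmonary arteries and remodels their walls, with more muscle and matrix, and mice kept in low oxygen are a standard model of pulmonary hypertension. The title of the series says that loss of VIP gives pulmonary arterial hypertension that hypoxia exaggerates. The hypoxia groups compare the genotypes at low oxygen and do not by themselves address that second statement. Whether the RNA difference between genotypes changes with oxygen is asked by the test of the interaction of genotype and oxygen.

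Values are the normalized signal deposited by the authors, and differences are log2 of the signal plus 1, VIPKO minus WT, ± standard error (SE), with adjusted p from limma. Estimated depth in the hypoxia libraries ran from 4.96 M reads in WT hypoxia 4 to 55.8 M in VIPKO hypoxia 1, and VIPKO hypoxia 2 came to 56.4 M with an uncertain scale. Some libraries stood apart. A list of 16 thymus genes summed to 27302 in VIPKO hypoxia 3, where 15 of the 16 were at their highest, against 879 to 1232 in the other hypoxia libraries, and Rag1, which cuts antigen receptor genes in developing lymphocytes, stood at 11136 there and at 8.53 or below elsewhere. A list of 15 skeletal muscle genes summed to 44502 in WT hypoxia 5, where all 15 were at their highest, against 240 to 1627 elsewhere. The summed signal of the mitochondrial ribosomal RNAs, mt-Rnr1 and mt-Rnr2, was 863, 702, 1563, 396 and 7058 in WT hypoxia 1 to 5 and 4856, 8760, 4506, 9415 and 5851 in VIPKO hypoxia 1 to 5, so that it was higher in every VIPKO library than in WT hypoxia 1 to 4. Xist, the RNA of the inactive X chromosome, was high in 3 of 5 libraries of each hypoxia group. Among the normoxia libraries it was high in WT normoxia 1 (36770) and 6 (40098) and VIPKO normoxia 3 (37036), and at 254 or below in the rest.

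The targeted gene did not separate the groups. Vip stood at 2.37, 6.77, 1.38, 0 and 3.43 in WT hypoxia 1 to 5 and at 2.17, 4.70, 1.08, 106 and 1.20 in VIPKO hypoxia 1 to 5. The value of 106 goes against its label, and it is from here on the library labelled VIPKO hypoxia 4. The other 9 libraries were at 6.77 or below in both genotypes, so that the label could not be checked on this gene (difference in means 20.2, exact permutation p = 0.651, 2-sided, or -0.504 without the library labelled VIPKO hypoxia 4). In normoxia Vip was 93.0 in WT normoxia 5 and 12.7 or below in the other libraries of both genotypes. Vip lies on chromosome 10 (GRCm38, 5639218 to 5647617). Of the 150 genes tested within 20 Mb of it limma called 0 in hypoxia, against 1.62% of all genes. Another count, 22 at an unadjusted p under 0.05, stands against 18.8% of all genes. In normoxia 7 of the 150 were called, against 8.65% of all genes. All directions below include the library labelled VIPKO hypoxia 4. Without it, none of the 45 called genes that are named changed sign.

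Of 21658 genes, 350 (1.62%) passed an adjusted p of 0.05, 155 higher in VIPKO (0.716%) and 195 lower (0.900%). Among them 57 rose (0.263%) and 17 fell (0.0785%) by more than 2-fold, and 4080 genes (18.8%) had an unadjusted p under 0.05. The 5 libraries of one group lay wholly above or below the other 5 for 814 genes (3.76%; 1.81% higher in VIPKO and 1.95% lower), and for 241 of the 350 called genes. The median difference of all genes was 0.021, and 52.8% of the differences were positive.

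This number of calls depended on single libraries. It was 35 without VIPKO hypoxia 2, 79 without the library labelled VIPKO hypoxia 4, 76 without WT hypoxia 3, 102 without WT hypoxia 1, 143 without VIPKO hypoxia 5, 189 without VIPKO hypoxia 1 and 194 without WT hypoxia 2. It was 588 without WT hypoxia 4 and 1339 without VIPKO hypoxia 3, the library with thymus RNA, and 1065 without that library and WT hypoxia 5 together. Leaving out VIPKO hypoxia 2 as well gave 286. Adding this mitochondrial ribosomal signal to the fit as a covariate left 26 calls. A fit to the 10 hypoxia libraries alone left 9. Differences ran against GC content (Spearman's rho = -0.307 across 20941 genes, which are not independent), and with length and GC content corrected 166 genes were higher and 41 lower, a split of the opposite sense from 155 and 195.

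Of the 45 called genes named by rule, 16 kept their call whichever of the 10 hypoxia libraries was left out, 7 higher and 9 lower. In all 16 the groups did not overlap (3.76% of all genes). The naming rule required this of all of them but Cx3cl1, so it is no separate result. The 16 genes are plotted one by one in all 20 libraries. With mitochondrial ribosomal RNA as a covariate 12 of the 16 kept the call, and with the length and GC correction all 15 that have a length did. A fit to the 10 hypoxia libraries alone called 7 of them. That fit has fewer degrees of freedom, and it takes the spread from the hypoxia groups only, without the normoxia groups. Which of these lowered the number was not tested.

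**Figure D1:**
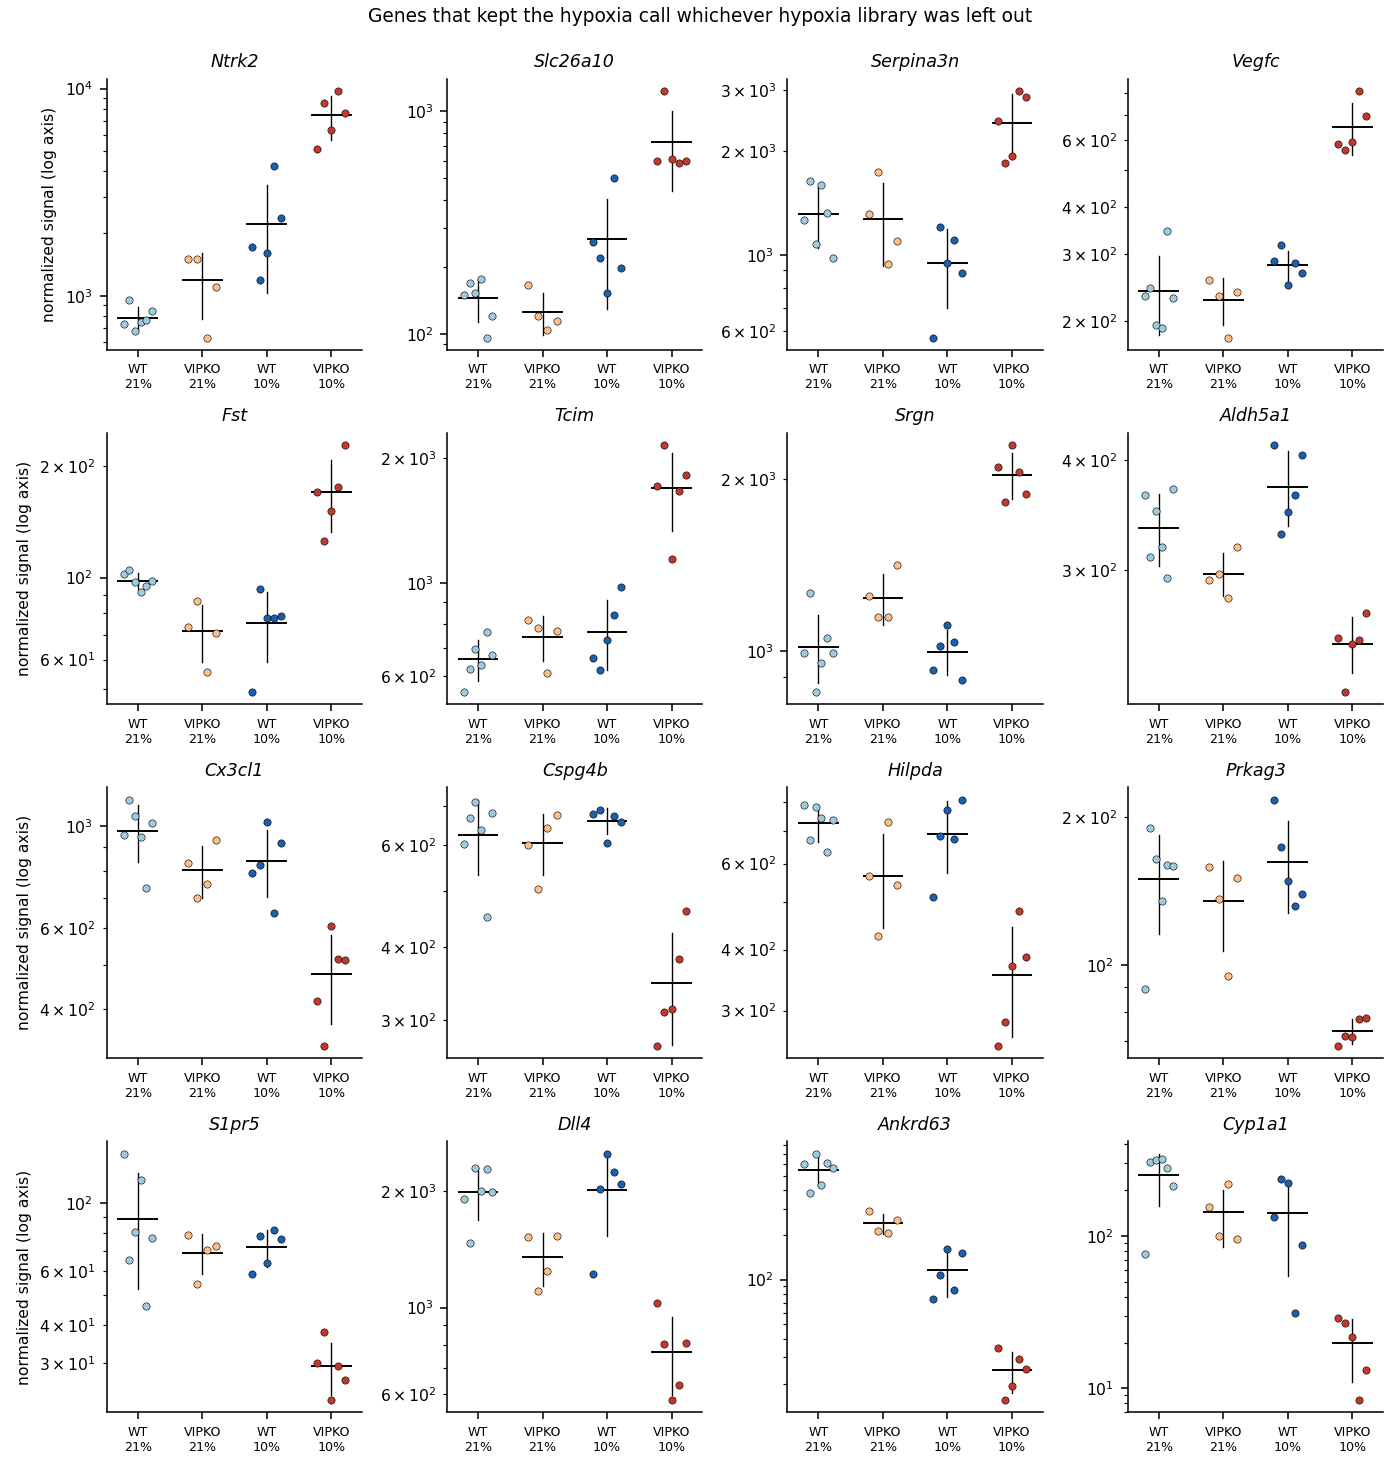
Normalized signal (log axis) of the 16 genes in each of the 20 libraries, by genotype and oxygen, with the group mean (bar) and SD (line). In every panel the 5 VIPKO libraries at 10% oxygen lie wholly above or below the 5 WT libraries at 10% oxygen, as for Srgn (1822 to 2290 against 891 to 1112). The naming rule required this of all the genes but Cx3cl1.

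Srgn, the rise with the lowest adjusted p, encodes serglycin, the proteoglycan core of secretory granules in blood and endothelial cells (chromosome 10, 62493833 to 62527451). Its signal was 926, 1022, 1112, 1038 and 891 in WT hypoxia 1 to 5 and 2103, 1822, 2290, 2059 and 1879 in VIPKO hypoxia 1 to 5. The lowest VIPKO library was 1822 and the highest WT library 1112. The difference was 1.02 ± 0.10 (adjusted p = 2.69e-05). Srgn was the only one of the 16 to pass with a replicate block (adjusted p = 0.0207).

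Vegfc, the ligand that drives growth of lymphatic vessels through the receptor Flt4 (chromosome 8, 54077606 to 54187096), rose 2.31-fold. It stood at 288, 318, 249, 284 and 268 in WT and 588, 564, 594, 808 and 693 in VIPKO hypoxia 1 to 5, a difference of 1.19 ± 0.15 (adjusted p = 0.00045). The VIPKO libraries lay far above WT and were more widely spread (SD 102 against 25.6 in WT). In normoxia the means were 240 in WT and 227 in VIPKO. Of its relatives, Vegfa differed by -0.19 (adjusted p = 0.31) and Vegfd by 0.59 (adjusted p = 0.0615), and the receptor Flt4 by 0.12, none of them called. Pgf, placental growth factor, another ligand of the family, rose by 1.06 ± 0.22 (adjusted p = 0.0246). It was named after its value was seen, and lost the call without WT hypoxia 1 or 3, VIPKO hypoxia 2 or 5 or the library labelled VIPKO hypoxia 4 (adjusted p = 0.0524 to 0.0678).

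Ntrk2 is the receptor for brain-derived neurotrophic factor (chromosome 13, 58806569 to 59133970). WT hypoxia 1 to 5 had 1715, 1196, 1617, 4225 and 2376, and VIPKO hypoxia 1 to 5 had 5122, 8470, 6282, 9707 and 7639. WT hypoxia 4 stood nearest to VIPKO. The difference was 1.85 ± 0.27 (adjusted p = 0.00295), or 3.34-fold between means.

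Fst encodes follistatin, a secreted binder of activins. It rose from 49.1, 93.1, 77.5, 77.7 and 78.8 in WT to 171, 126, 151, 176 and 228 in VIPKO (1.17 ± 0.18, adjusted p = 0.00387). Serpina3n, a secreted inhibitor of serine proteases, was 575, 1206, 949, 1104 and 882 in WT and 2440, 1844, 1935, 2983 and 2869 in VIPKO (1.37 ± 0.20, adjusted p = 0.00295). Its family has near-identical copies in the mouse, between which reads may be split. Tcim and Slc26a10, the latter of an anion transporter family, rose by 1.14 ± 0.15 (adjusted p = 0.000694) and 1.5 ± 0.26 (adjusted p = 0.0136). For Slc26a10 the library VIPKO hypoxia 2 stood at 1234 and the other VIPKO libraries at 586 to 611, against 153 to 501 in WT.

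Among the falls, Dll4, the Notch ligand of arterial and sprouting endothelium (chromosome 2, 119325784 to 119335962), went from 1221, 2024, 2489, 2239 and 2078 in WT to 1028, 806, 578, 634 and 809 in VIPKO. WT hypoxia 1 was low for its group, and the groups still did not overlap. The fall was -1.37 ± 0.18 (adjusted p = 0.000694), with a WT mean 2.61 times that of VIPKO. Ankrd63, an ankyrin repeat gene, fell by 2.16 (SE 0.24, adjusted p = 0.000108) from 73.6, 107, 160, 85.5 and 152 to 34.7, 15.5, 19.4, 29.4 and 25.2. It was the only one of the 16 that was also called in normoxia (-1.17, adjusted p = 0.00763).

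Cyp1a1, the cytochrome P450 that is induced through the aryl hydrocarbon receptor, showed the largest of these falls. It stood at 133, 235, 223, 31.1 and 86.8 in WT and at 28.9, 26.8, 21.6, 8.39 and 13.2 in VIPKO. WT hypoxia 4 (31.1) lay just above VIPKO hypoxia 1 (28.9), so the groups were separate by a small margin. The difference was -2.59 ± 0.49 (adjusted p = 0.0153).

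S1pr5, a sphingosine 1-phosphate receptor of natural killer cells and patrolling monocytes, fell from 58.6 to 81.6 in WT to 22.7 to 38 in VIPKO (-1.27 ± 0.25, adjusted p = 0.0172). Cx3cl1, the membrane-bound chemokine fractalkine, fell from 792, 824, 1024, 649 and 919 to 418, 333, 607, 515 and 513 (-0.83 ± 0.15, adjusted p = 0.0146). Hilpda, an inhibitor of lipid droplet breakdown that hypoxia-inducible factors (HIF) induce, fell from 513, 682, 773, 672 and 811 to 254, 284, 370, 480 and 386 (-0.98 ± 0.16, adjusted p = 0.00891). The remaining 3 falls were those of Prkag3, Cspg4b and Aldh5a1. Prkag3, a regulatory subunit of AMP-activated kinase best known from skeletal muscle, was 217, 174, 148, 132 and 139 in WT and 68.3 to 77.9 in VIPKO (-1.11 ± 0.19, adjusted p = 0.0107). WT hypoxia 5, the library with skeletal muscle RNA, was not the highest. Cspg4b and Aldh5a1, an enzyme of GABA breakdown, fell by 0.95 and 0.59.

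A further 7 genes named for the size of their change lost their call without single libraries. Aspn, a small matrix proteoglycan, rose by 1.57 ± 0.33 (adjusted p = 0.0246) from 91.0, 157, 249, 362 and 364 to 647, 685, 380, 974 and 671. It was not called without WT hypoxia 1, 2 or 3 or without VIPKO hypoxia 2 or 5 or the library labelled VIPKO hypoxia 4 (adjusted p = 0.0515 to 0.0721). Hapln1, which links hyaluronan to proteoglycans, rose by 1.62 ± 0.35 (adjusted p = 0.0265), from 11.7 to 28.8 in WT to 33.4 to 92.3 in VIPKO, and was not called in 6 of the 10 fits without 1 library (without WT hypoxia 1 or 3, VIPKO hypoxia 1, 2 or 5 or the library labelled VIPKO hypoxia 4, adjusted p = 0.0513 to 0.073). Pla1a, a phospholipase, rose from 19 to 45.7 to 57.1 to 109 (1.30 ± 0.33, adjusted p = 0.0477) and was not called without WT hypoxia 1, 2, 3 or 5, VIPKO hypoxia 1, 2 or 5 or the library labelled VIPKO hypoxia 4 (adjusted p = 0.0507 to 0.123).

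Fer1l4 fell by 1.35 and Unc79, a subunit of a sodium leak channel complex, by 1.08. In both, WT hypoxia 1 stood apart from its group, at 92.6 and 743 against at most 48.4 and 298 in the other WT libraries. Without it neither was called, at an adjusted p of 0.0502 to 0.0721 for Fer1l4 and 0.0507 to 0.0743 for Unc79 over the fits in which the call was lost (also without WT hypoxia 3 or VIPKO hypoxia 5 for Fer1l4, VIPKO hypoxia 1 for Unc79, and VIPKO hypoxia 2 or the library labelled VIPKO hypoxia 4 for both). Adgre4, an adhesion receptor of macrophages, fell by 1.03 and Klhl38 by 0.96, and both lost the call without WT hypoxia 1 or 3, VIPKO hypoxia 1, 2 or 5 or the library labelled VIPKO hypoxia 4, Adgre4 also without WT hypoxia 2 and Klhl38 also without WT hypoxia 5 (adjusted p = 0.0717 to 0.101 and 0.0525 to 0.0975).

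Gene lists for the lung's cell types and for pathways of pulmonary hypertension, 46 lists with 648 genes tested, held 24 called genes (3.7%, against 1.62% of all genes), 14 higher and 10 lower. The lists were written with earlier results of these data known, so the higher share is no independent result. The shares over all genes, 0.716% higher and 0.900% lower, are the background for the counts in each list. The plot of all list members shows their spread. In 4 lists every tested member was positive: smooth muscle (15), pericytes (10), cell cycle (23) and neutrophils (14). A change in a whole lung can come from fewer or more cells of a type or from less or more RNA per cell, which cannot be told apart here.

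**Figure D2:**
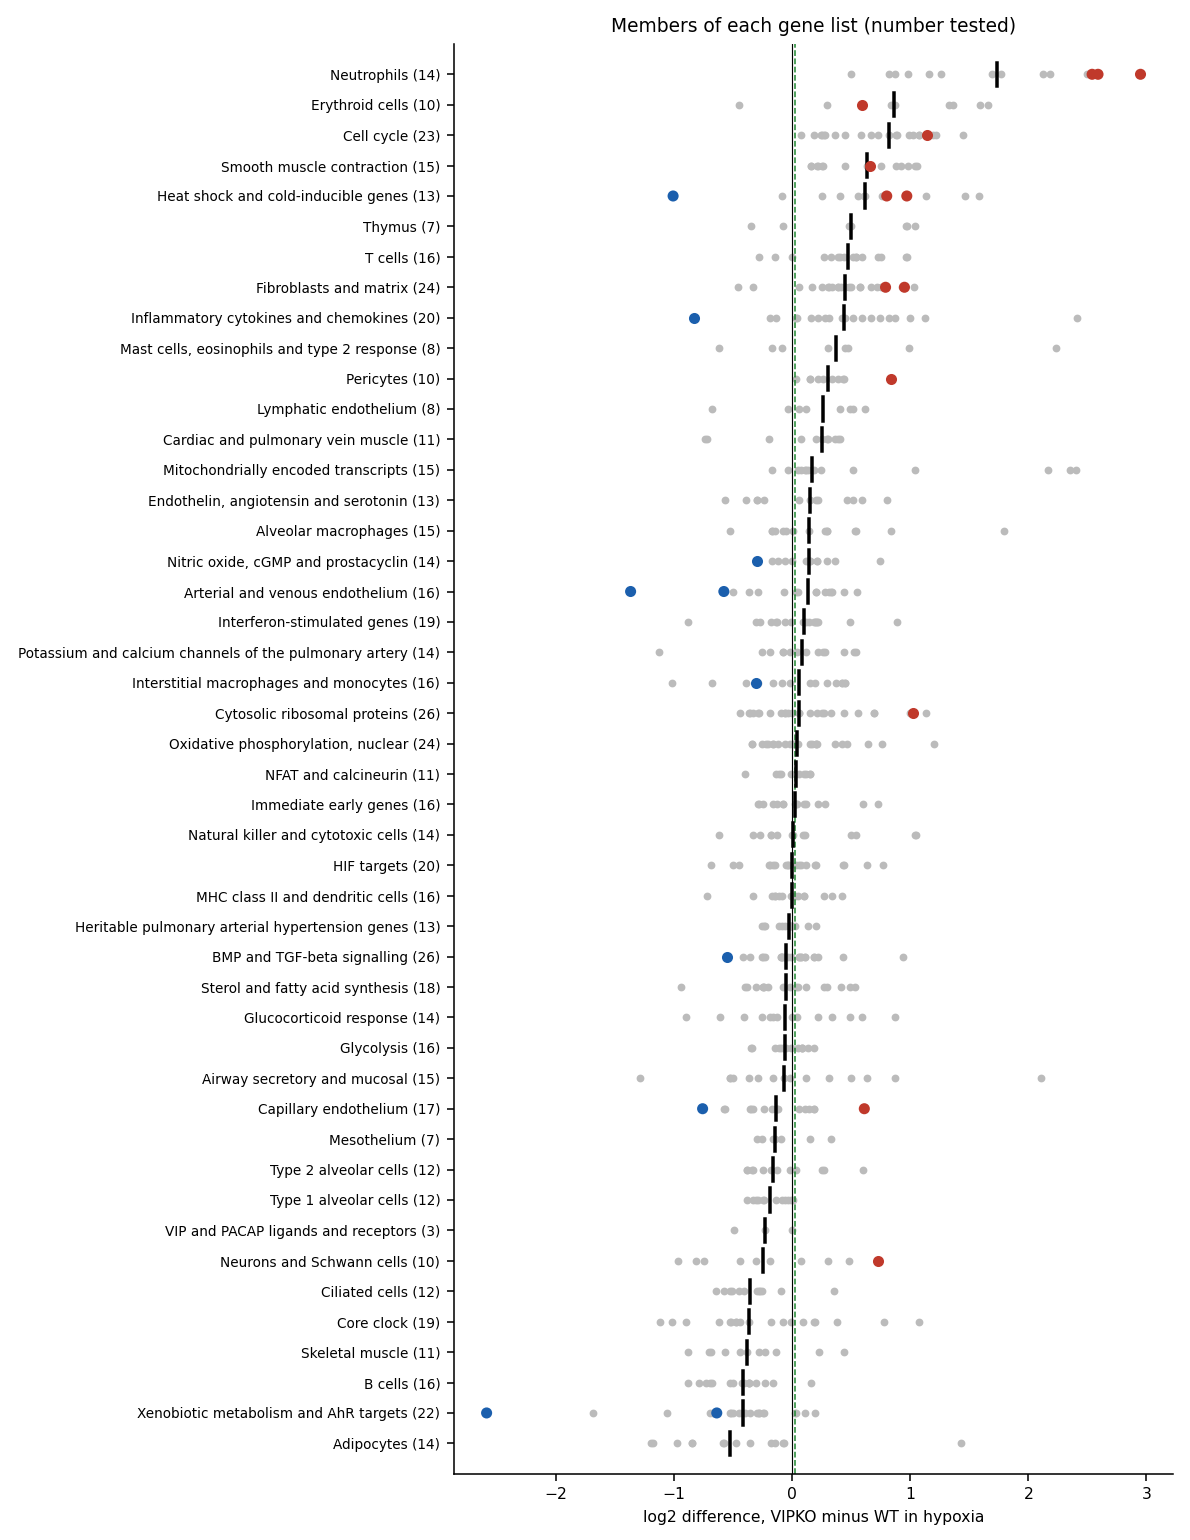
Each point is 1 gene of a list, placed by its log2 difference, VIPKO minus WT in hypoxia; red (higher) and blue (lower) points passed the adjusted p of 0.05, grey points did not, black bars are list medians and the green dashed line is the median of all genes (0.021). Neutrophil genes lie highest, with a median of 1.73, and adipocyte genes lowest, with a median of -0.53.

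In the endothelium, of 16 arterial and venous genes, 2 fell and 0 rose by limma (median 0.13, 7 of the 16 at an unadjusted p under 0.05). These were Dll4 and Efnb2, the arterial ephrin that marks arteries against veins. Efnb2 stood at 3617, 4976, 5351, 5916 and 5667 in WT and 3731, 3566, 2368, 3324 and 4059 in VIPKO (-0.58 ± 0.13, adjusted p = 0.0330). The Efnb2 difference in normoxia was -0.66 (adjusted p = 0.00822). In hypoxia, WT hypoxia 1 lay among the VIPKO values. The call was lost without WT hypoxia 2, 3 or 5, VIPKO hypoxia 2 or the library labelled VIPKO hypoxia 4 (adjusted p = 0.0546 to 0.0843), and without VIPKO hypoxia 2 and 3, that library and WT hypoxia 5 the difference was -0.33 (adjusted p = 0.345). Hey1, a Notch target, differed by -0.50 (adjusted p = 0.0599).

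Of 17 capillary genes, 1 rose and 1 fell (median -0.14). Plvap, which forms the diaphragms of endothelial caveolae and fenestrae, was 1449, 1486, 2678, 2134 and 3094 in WT and 1551, 915, 1401, 1327 and 1035 in VIPKO (-0.76 ± 0.18, adjusted p = 0.0404). WT hypoxia 1 and 2 overlapped with VIPKO, and the call was lost without WT hypoxia 3 or 5, VIPKO hypoxia 2 or 5 or the library labelled VIPKO hypoxia 4 (adjusted p = 0.0734 to 0.114). Plvap was lower in normoxia too (-0.71, adjusted p = 0.0236). Sema3c, a secreted semaphorin of alveolar capillary cells, was 8887, 8573, 9725, 14651 and 9899 in WT and 14646, 17354, 11707, 17667 and 16872 in VIPKO (0.61 ± 0.14, adjusted p = 0.0311). WT hypoxia 4 reached the VIPKO range, and the call was lost without WT hypoxia 1, 2 or 3, VIPKO hypoxia 2 or 5 or the library labelled VIPKO hypoxia 4 (adjusted p = 0.0634 to 0.0851). The endothelin receptor Ednrb differed by -0.57 (adjusted p = 0.0587). None of 8 lymphatic genes passed by limma's test (4 at an unadjusted p under 0.05), with Ccl21a at 0.62 (adjusted p = 0.0857) and Mmrn1 at 0.49 (adjusted p = 0.216).

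Bone morphogenetic protein (BMP) signalling restrains the growth of pulmonary artery cells, and loss of its receptor Bmpr2 is the main inherited cause of pulmonary arterial hypertension. Of 26 BMP and TGF-beta genes, 1 fell and 0 rose (median -0.05, 5 at an unadjusted p under 0.05). It was Bmp6, an endothelial ligand, with 1760, 2416, 2359, 2733 and 2604 in WT and 1916, 1545, 1423, 1499 and 1676 in VIPKO (-0.55 ± 0.13, adjusted p = 0.0330). VIPKO hypoxia 1 lay above WT hypoxia 1, and Bmp6 lost the call without WT hypoxia 2, 3 or 5, VIPKO hypoxia 2 or 5 or the library labelled VIPKO hypoxia 4 (adjusted p = 0.059 to 0.0856). It was -0.33 with length and GC content corrected (adjusted p = 0.222) and -0.35 without VIPKO hypoxia 2 and 3, the library labelled VIPKO hypoxia 4 and WT hypoxia 5 (adjusted p = 0.375). Bmp6 was lower in normoxia too (-0.63, adjusted p = 0.00720). None of 13 genes of heritable pulmonary arterial hypertension passed with limma, and 0 had an unadjusted p under 0.05: Kdr differed by -0.24, Eng by -0.23 and Bmpr2 by -0.01 (SE 0.14). Bmpr2 ran from 19817 to 27379 in WT and from 15534 to 28569 in VIPKO.

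Contractile genes of smooth muscle were higher by their median (0.63 over 15 genes), with 1 called. Cald1, caldesmon, which binds actin and restrains contraction, was 2166, 2514, 2716, 3285 and 3373 in WT and 4560, 4551, 3233, 5184 and 4651 in VIPKO (0.66 ± 0.13, adjusted p = 0.0193). Only VIPKO hypoxia 3 fell within the WT range. Its call was lost without WT hypoxia 1 or 3, VIPKO hypoxia 2 or the library labelled VIPKO hypoxia 4 (adjusted p = 0.0513 to 0.0589). The classical markers did not pass: Acta2 was 352, 758, 968, 4719 and 3746 in WT and 3082, 2567, 1443, 3113 and 3123 in VIPKO (0.92 ± 0.55, adjusted p = 0.380). WT hypoxia 4 and 5 were above all VIPKO libraries and WT hypoxia 1 to 3 below them. Myh11 (0.88, adjusted p = 0.285) and Tagln (0.98, adjusted p = 0.145) overlapped too, with WT hypoxia 4 and 5 the highest of WT. The list's median was 0.33 without WT hypoxia 1 and 0.27 with mitochondrial ribosomal RNA as a covariate. Without VIPKO hypoxia 3 and WT hypoxia 5 the list held 3 rises and its median was 1.09.

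Among 10 pericyte genes (median 0.30) Higd1b rose, from 144, 132, 181, 237 and 158 to 233, 378, 258, 345 and 312 (0.84 ± 0.17, adjusted p = 0.0198). WT hypoxia 4 (237) lay above VIPKO hypoxia 1 (233). It was not called without WT hypoxia 1, VIPKO hypoxia 2 or the library labelled VIPKO hypoxia 4 (adjusted p = 0.0518 to 0.0647). Pdgfrb differed by 0.03 and Notch3 by 0.22. The list's median was 0.13 without WT hypoxia 1. Without VIPKO hypoxia 3 and WT hypoxia 5, 1 pericyte gene rose and the median was 0.47.

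Matrix genes were mostly higher: 22 of 24 were positive (median 0.45), 2 rose and 0 fell. Lox, which cross-links collagen and elastin, was 883, 1898, 1475, 1427 and 1255 in WT and 3370, 2744, 2269, 2598 and 2207 in VIPKO (0.95 ± 0.18, adjusted p = 0.0153). All VIPKO libraries were above all WT libraries, and the call was lost without VIPKO hypoxia 2 alone (adjusted p = 0.053). Fn1, fibronectin, was 8519, 10786, 12707, 21943 and 14139 in WT and 23414, 20769, 20186, 21749 and 25934 in VIPKO (0.79 ± 0.17, adjusted p = 0.0286). WT hypoxia 4 reached the VIPKO range, and Fn1 lost the call without WT hypoxia 1, 2 or 3, VIPKO hypoxia 1, 2 or 5 or the library labelled VIPKO hypoxia 4 (adjusted p = 0.0569 to 0.0709). Col4a1 (0.57, adjusted p = 0.0552), Mfap5 (0.75, adjusted p = 0.0854) and Eln (0.93, adjusted p = 0.209) did not pass. Without VIPKO hypoxia 3 and WT hypoxia 5, 5 matrix genes rose and the median was 0.64; without WT hypoxia 1 it was 0.20.

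**Figure D3:**
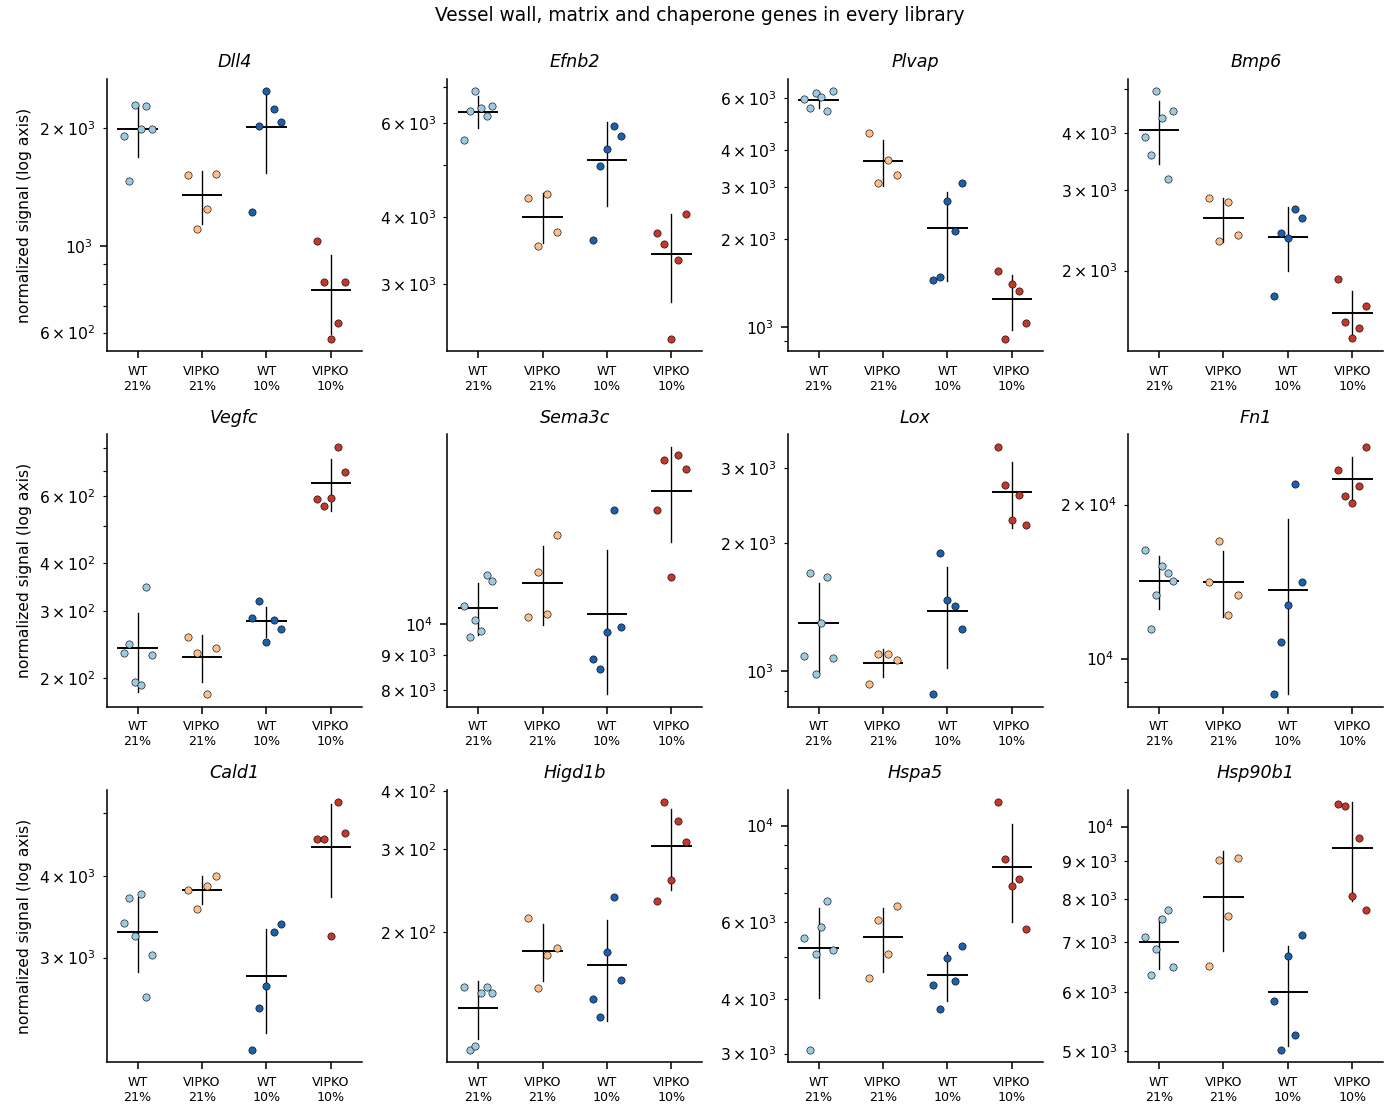
Normalized signal (log axis) of 12 vessel wall, matrix and chaperone genes in all 20 libraries by genotype and oxygen, with group mean (bar) and SD (line). At 10% oxygen Dll4, Vegfc, Lox, Hspa5 and Hsp90b1 separate the genotypes completely, while Efnb2, Plvap, Bmp6, Sema3c, Fn1, Cald1 and Higd1b overlap in 1 or more libraries.

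Genes of vascular tone held 1 call. Of 14 genes of nitric oxide, cyclic GMP and prostacyclin signalling, Npr2, the receptor of C-type natriuretic peptide, fell from 2180, 2306, 2417, 2126 and 2186 to 1893, 1846, 1830, 1687 and 1876 (-0.30 ± 0.07, adjusted p = 0.0339). Its groups did not overlap, and it lost the call without WT hypoxia 1, 2 or 3, VIPKO hypoxia 1, 2 or 5 or the library labelled VIPKO hypoxia 4 (adjusted p = 0.0525 to 0.0928). With length and GC content corrected the difference was -0.10 (adjusted p = 0.555). Npr2 was lower in normoxia too (-0.31, adjusted p = 0.0122). Nos3, endothelial nitric oxide synthase, differed by 0.36 (adjusted p = 0.162). None of 13 genes of endothelin, angiotensin and serotonin passed by limma's test (5 at an unadjusted p under 0.05), none of 14 channel genes (2) and none of 11 genes of calcineurin and NFAT (1). Ece1, the enzyme that makes endothelin, differed by -0.30 (adjusted p = 0.0893), Trpc6 by 0.44, Stim1 by -0.19 and Ppp3cb by 0.15. Of the receptors for VIP and its relative PACAP, Vipr1 ran from 117 to 249 in WT and 84.4 to 129 in VIPKO (-0.49, adjusted p = 0.216), Vipr2 differed by 0.00 ± 0.22 and Adcyap1r1 by -0.23 ± 0.22.

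Of the oxygen response, none of the 20 tested genes of the HIF target list, which does not hold Hilpda, passed by limma's test (3 at an unadjusted p under 0.05, median -0.00), nor did any of 16 glycolytic genes (0 at an unadjusted p under 0.05). P4ha1 differed by 0.44 (adjusted p = 0.116), Pdk1 by -0.50 (adjusted p = 0.155) and Eno2 by -0.34. Of 24 nuclear genes of oxidative phosphorylation 0 passed (4 at an unadjusted p under 0.05), led by Cox6c at 0.76 (adjusted p = 0.0755). Mitochondrially encoded transcripts had 0 calls of 15 (3 at an unadjusted p under 0.05), with mt-Rnr1 at 2.35 ± 0.60 (adjusted p = 0.0513) and mt-Atp8 at 2.17 ± 0.61 (adjusted p = 0.0681). Of 26 ribosomal protein genes Rpl37 rose, from 58.5 to 97.4 in WT to 105 to 218 in VIPKO (1.02 ± 0.21, adjusted p = 0.0246), and lost the call without VIPKO hypoxia 2 (adjusted p = 0.0718); without VIPKO hypoxia 2 and 3, the library labelled VIPKO hypoxia 4 and WT hypoxia 5 it was 0.64 (adjusted p = 0.305). Rpl37 was higher in normoxia too (1.21, adjusted p = 0.00449). Ribosomal protein genes have many pseudogene copies that can share reads.

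Chaperone genes held calls in both directions. Of 13 heat shock and cold-inducible genes 11 were positive, 2 rose and 1 fell (median 0.62), and 10 had an unadjusted p under 0.05. Hspa5, the main chaperone of the endoplasmic reticulum (ER), was 4309, 3800, 4958, 4404 and 5294 in WT and 11295, 8384, 7256, 7543 and 5787 in VIPKO (0.80 ± 0.18, adjusted p = 0.0326). Hsp90aa1, the inducible cytosolic HSP90, was 3020, 2208, 2976, 2289 and 3244 in WT and 8053, 6790, 4064, 4912 and 3856 in VIPKO (0.97 ± 0.23, adjusted p = 0.0368). In both the VIPKO libraries lay above all WT libraries, and VIPKO hypoxia 1 was the highest.

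Cirbp, an RNA-binding protein that cooling induces and warming lowers, went the other way. It was 1067, 1386, 1163, 863 and 654 in WT and 312, 432, 865, 491 and 517 in VIPKO (-1.01 ± 0.24, adjusted p = 0.0404). VIPKO hypoxia 3 lay among the WT values. Hspa1a, the heat-inducible HSP70, was 190 to 275 in WT hypoxia 1 to 4 and higher in WT hypoxia 5, and was 2475, 996, 293, 352 and 943 in VIPKO (1.46, adjusted p = 0.077), and it has a near-identical neighbour, Hspa1b. All 3 calls were lost without WT hypoxia 1, 2 or 3, VIPKO hypoxia 1 or 2 or the library labelled VIPKO hypoxia 4, Cirbp also without VIPKO hypoxia 5 (adjusted p = 0.0647 to 0.0777 for Hspa5, 0.068 to 0.0982 for Hsp90aa1 and 0.0726 to 0.0986 for Cirbp). With the mitochondrial ribosomal signal as a covariate Hspa5 differed by 0.43 (adjusted p = 0.302), Cirbp by -0.62 (adjusted p = 0.303) and Hsp90aa1 by 0.81 (adjusted p = 0.199). Without VIPKO hypoxia 3 and WT hypoxia 5, 8 genes of the list rose, 1 fell and the median was 0.80.

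Of the called genes of the ER, Hspa5, Hsp90b1 and Calr are shown because their promoters hold the sequence described below. Its presence in them is therefore no result. Hsp90b1 and Calr were picked after their values were seen, from the called genes, and both lost the call without VIPKO hypoxia 2 (adjusted p = 0.0552). Hsp90b1, the HSP90 of the ER, was 5837, 5018, 6705, 5254 and 7167 in WT and 10712, 10652, 8074, 9663 and 7720 in VIPKO (0.64 ± 0.12, adjusted p = 0.0153). Calr, calreticulin, which folds glycoproteins and binds calcium, was 5234, 4292, 5644, 5570 and 6286 in WT and 9699, 8120, 8884, 8285 and 6349 in VIPKO (0.61 ± 0.12, adjusted p = 0.0189). In both genes all VIPKO libraries lay above all WT libraries, VIPKO hypoxia 5 by the least. The ER stress element, CCAAT and CCACG with 9 bases of any kind between them, searched on both strands, is the sequence through which the unfolded protein response acts on such genes. It was found in 0.139% of 16603 promoter windows (250 bases before to 50 after a RefSeq start, GRCm38.p6), and in the windows of these 3 genes. Of 20 ER chaperones and folding enzymes, a list assembled after the values were seen, 18 have a window and 7 of those hold the element, among them Canx, Creld2, Dnajc3 and Pdia6, which were not called. Of the 5 called rises in that list, Pdia3 has a window without it and Manf is named only. Of the 10 members of the list above with a window, 1 holds it, Hspa5. The stretches below run 5′ to 3′ on the gene's strand, with the element in capitals (on the opposite strand in Calr and at the second place in Hsp90b1). They lie at chr2:34771985-34772083 (+), chr10:86705493-86705694 (-) and chr8:84847035-84847133 (-).
Hspa5: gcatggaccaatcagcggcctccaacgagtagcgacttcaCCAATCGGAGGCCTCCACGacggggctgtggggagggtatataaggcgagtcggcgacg
Hsp90b1: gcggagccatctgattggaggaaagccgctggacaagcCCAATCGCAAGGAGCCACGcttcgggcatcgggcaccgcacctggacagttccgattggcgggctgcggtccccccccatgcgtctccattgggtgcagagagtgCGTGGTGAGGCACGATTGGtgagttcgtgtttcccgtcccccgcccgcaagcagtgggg
Calr: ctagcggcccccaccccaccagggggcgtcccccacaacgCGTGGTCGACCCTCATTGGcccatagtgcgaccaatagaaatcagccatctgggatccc
A match is a description of these letters and no evidence that a factor bound there. The heat shock element, searched on both strands as GAA, TTC and GAA with 2 bases between each, was in 0.476% of windows. Of the 13 tested heat shock and cold-inducible genes 10 have a window, and those of Hspd1, Hspe1 and Hsph1 hold it. None of these 3 was called. The called gene Hsp90aa1 has no window, so whether its promoter holds the element was not tested.

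No gene of the body clock or of acute responses passed. None of 19 clock genes was called by limma (5 at an unadjusted p under 0.05, median -0.37). Dbp, an output gene of the clock, was 5557, 4539, 5332, 813 and 5463 in WT and 1772, 2385, 3044, 345 and 2740 in VIPKO (-1.12, adjusted p = 0.329). Arntl, which peaks in opposite phase, was 55.8 to 99.6 in WT hypoxia 1, 2, 3 and 5 and 159 to 484 in VIPKO (1.07, adjusted p = 0.279). WT hypoxia 4 and the library labelled VIPKO hypoxia 4 shared the lowest Dbp and the highest Arntl. None of 14 glucocorticoid-responsive genes passed (3 at an unadjusted p under 0.05), with Sgk1 at 0.59 (adjusted p = 0.0557), and none of 16 immediate early genes (0), with Fos at 0.73 (adjusted p = 0.472).

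Genes of cell division were higher throughout their list: 23 of 23 were positive with a median of 0.82, 14 had an unadjusted p under 0.05 and 1 rose. In normoxia the list's median was 0.50 with 0 rises, and 0 of its genes passed the interaction test. Mki67, a protein of dividing cells, was 275, 262, 396, 431 and 557 in WT and 492, 530, 1319, 1039 and 1001 in VIPKO (1.14 ± 0.25, adjusted p = 0.0265). WT hypoxia 5 lay above VIPKO hypoxia 1 and 2. Its call was lost without WT hypoxia 1, 2 or 3, VIPKO hypoxia 5 or the library labelled VIPKO hypoxia 4 (adjusted p = 0.0588 to 0.0742). Top2a (1.13, adjusted p = 0.0612) and Cdk1 (1.19, adjusted p = 0.0669) did not pass. VIPKO hypoxia 3, the library with thymus RNA, was the highest for 21 of the 23 genes. The list's summed signal was 2876 to 3753 in WT and 3344 to 7259 in VIPKO. Without that library and WT hypoxia 5 the median was 0.64 and 5 genes rose, Mki67 among them (1.11, adjusted p = 0.0156).

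The lists for lung epithelium held no called gene. Of 12 ciliated cell genes 11 were negative (median -0.36, 0 called, 6 at an unadjusted p under 0.05), with Foxj1 at -0.65 (adjusted p = 0.0722) and Hydin at -0.58 (adjusted p = 0.0822). Of 12 type 1 alveolar genes 11 were negative (median -0.19, 0 called, 2 at an unadjusted p under 0.05), led by Emp2 at -0.33. Type 2 alveolar genes had 0 calls of 12 (4), with Abca3 at -0.34 (adjusted p = 0.0666) and Lpcat1 at -0.38 (adjusted p = 0.0887). Airway secretory genes had 0 of 15 (2), sterol and fatty acid synthesis 0 of 18 (6) and mesothelium 0 of 7 (1), all by limma. Cyp2f2, a club cell enzyme, differed by -0.53 (adjusted p = 0.135), Srebf2 by -0.25, Insig1 by -0.38, Spock2 by -0.38, Lrrn4 by -0.30 and Upk1b by 0.33.

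Enzymes of xenobiotic metabolism were mostly lower: 18 of 22 were negative (median -0.42), 2 fell and 10 had an unadjusted p under 0.05. Beside Cyp1a1, Fmo1, a flavin monooxygenase, fell from 3357, 6211, 4036, 3588 and 4291 to 2957, 2782, 1658, 3205 and 3195 (-0.64 ± 0.16, adjusted p = 0.0495). VIPKO hypoxia 3 was the lowest and WT hypoxia 1 the closest to VIPKO. Fmo1 kept its call only without WT hypoxia 4 or VIPKO hypoxia 3 (adjusted p = 0.0597 to 0.0975 in the other 8 fits, each without 1 of WT hypoxia 1, 2, 3 and 5, VIPKO hypoxia 1, 2 and 5 and the library labelled VIPKO hypoxia 4). Without VIPKO hypoxia 2 and 3 and WT hypoxia 5 it was -0.42 (adjusted p = 0.162). Cyp2a5, which has near-identical neighbours, was 1941, 1810, 1331, 1081 and 925 in WT and 308, 357, 884, 450 and 308 in VIPKO (-1.69 ± 0.44, adjusted p = 0.0549). The xenobiotic response element TNGCGTG, searched on both strands, was in 7.13% of promoter windows and, of the 17 members with a window, in that of Ahrr alone. These windows cover only the bases next to the start, so elements farther upstream were not searched, and Fmo1 has no window. The search therefore cannot show whether the called falls have such an element.

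Among immune genes the neutrophil list stood out in its level. All 14 members were positive with a median of 1.73, 12 had an unadjusted p under 0.05 and 3 rose. In normoxia the list's median was 1.00 with 1 rise, and 0 of its genes passed the interaction test. S100a9, a subunit of the neutrophil protein calprotectin, was 165, 234, 183 and 120 in WT hypoxia 1, 3, 4 and 5 and slightly higher in WT hypoxia 2, and it was 4628, 1221, 2872 and 258 in VIPKO hypoxia 1, 2, 3 and 5, with the library labelled VIPKO hypoxia 4 between the last of these and 1221 (2.59 ± 0.61, adjusted p = 0.0377). S100a8, its partner, was 177, 338, 313, 245 and 98.2 in WT and 6154, 1151, 2588, 517 and 318 in VIPKO (2.54 ± 0.62, adjusted p = 0.0439). VIPKO hypoxia 5 was close to WT in both, and S100a8 overlapped there. In normoxia S100a9 differed by 1.90 (adjusted p = 0.0604) and S100a8 by 1.68 (adjusted p = 0.102).

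Ngp, a granule protein of maturing neutrophils, was 15, 20.3, 13.8, 54.4 and 3.43 in WT and 824, 76.2, 126, 71.3 and 57.5 in VIPKO (2.95 ± 0.73, adjusted p = 0.0445). Its difference in normoxia was 1.38 (adjusted p = 0.253). Wfdc21 rose from 7.77 to 19.4 to 36.0 to 129 (2.48 ± 0.62, adjusted p = 0.0472), and it was higher in normoxia too (2.19, adjusted p = 0.0362). The list's summed signal was 2933 to 6499 in WT and 4826 to 27802 in VIPKO, with the 2 highest sums in VIPKO hypoxia 1 (27802) and VIPKO hypoxia 3 (18312). All 4 calls were lost without VIPKO hypoxia 1 (S100a9 2.08, adjusted p = 0.0793; Ngp 2.28, adjusted p = 0.0926). They were also lost without WT hypoxia 1, 2, 3 or 5 or VIPKO hypoxia 2, and all but that of S100a9 without the library labelled VIPKO hypoxia 4. Ngp and Wfdc21 were not called without VIPKO hypoxia 5 either, nor Wfdc21 without WT hypoxia 4. Over these fits the adjusted p was 0.053 to 0.0816 for S100a9, 0.0546 to 0.0897 for S100a8, 0.0581 to 0.0949 for Ngp and 0.0577 to 0.1 for Wfdc21. Without VIPKO hypoxia 3 and WT hypoxia 5 the median was 1.35 and these 4 genes did not pass (S100a9 2.10, adjusted p = 0.069; Ngp 2.48, adjusted p = 0.0691).

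Other leukocytes differed less. Csf1r, the receptor for the growth factor of macrophages, fell from 2459, 2584, 2892, 2573 and 2623 to 2246, 2009, 2263, 2038 and 2015 (-0.31 ± 0.07, adjusted p = 0.0325), 1 of 16 genes of interstitial macrophages and monocytes. The groups did not overlap, and the call was lost without WT hypoxia 1, 2 or 3, VIPKO hypoxia 2 or 5 or the library labelled VIPKO hypoxia 4 (adjusted p = 0.0521 to 0.0917). With length and GC content corrected it was -0.12 (adjusted p = 0.474). Marco, a scavenger receptor of macrophages, ran from 40.4 to 104 in WT and from 145 to 605 in VIPKO without passing (1.79 ± 0.54, adjusted p = 0.0839), and none of 15 alveolar macrophage genes passed by limma's test (2 at an unadjusted p under 0.05).

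B cell genes were negative in 15 of 16 (median -0.42, 0 called by limma, 5 at an unadjusted p under 0.05), with Pax5 at -0.73 (adjusted p = 0.118) and Cd79b at -0.70 (adjusted p = 0.167). T cell genes had a median of 0.47 that was -0.08 without VIPKO hypoxia 3 (0 called of 16, 0 at an unadjusted p under 0.05). Tcf7 was 3944 in that library and 440 to 504 in the other VIPKO libraries. None of 14 natural killer, 16 antigen-presentation, 19 interferon-stimulated and 8 mast cell and type 2 genes passed by limma's test (0, 2, 1 and 1 at an unadjusted p under 0.05). Rsad2 differed by 0.89, Oas2 by 0.49, Ciita by 0.34, H2-Oa by -0.72, Tbx21 by -0.62, Klrg1 by 1.05, Hdc by 0.45 and Retnla by 2.23 (adjusted p = 0.13). Of 20 cytokines and chemokines 17 were positive (median 0.44) and the single call was the fall of Cx3cl1. Cxcl2, a chemokine for neutrophils, differed by 2.41 (adjusted p = 0.116).

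Lists for other tissues and for blood moved with single libraries. Erythroid genes had a median of 0.86 over 10 genes, with 1 rise, that of Tfrc, the transferrin receptor (1243, 1311, 1352, 1209 and 1341 against 2282, 1755, 1916, 1945 and 1833, 0.59 ± 0.14, adjusted p = 0.0361). Tfrc serves iron uptake in all dividing cells, its groups did not overlap, and its call was lost without WT hypoxia 1, 2 or 3, VIPKO hypoxia 1, 2 or 5 or the library labelled VIPKO hypoxia 4 (adjusted p = 0.0569 to 0.0793). Tfrc was higher in normoxia too (0.48, adjusted p = 0.0365). The haemoglobin gene Hbb-bs was 15754, 7709, 8088, 53931 and 5667 in WT and 36888, 21126, 16363, 13383 and 32292 in VIPKO (0.84, adjusted p = 0.759). WT hypoxia 4 was the highest of the hypoxia libraries. The erythroid median was -0.01 with mitochondrial ribosomal RNA as a covariate. Adipocyte genes had a median of -0.53 that was -0.01 without WT hypoxia 5, and none of 14 passed (0 at an unadjusted p under 0.05, limma).

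Ret, a receptor tyrosine kinase of the enteric and peripheral nervous system, was the 1 call among 10 nerve and Schwann cell genes. It rose from 99.7, 105, 95.5, 132 and 130 to 239, 179, 153, 171 and 194 (0.73 ± 0.17, adjusted p = 0.0325). No WT library reached a VIPKO library. The call was lost without WT hypoxia 1, 2 or 3, VIPKO hypoxia 1, 2 or 5 or the library labelled VIPKO hypoxia 4 (adjusted p = 0.0588 to 0.089).

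**Figure D4:**
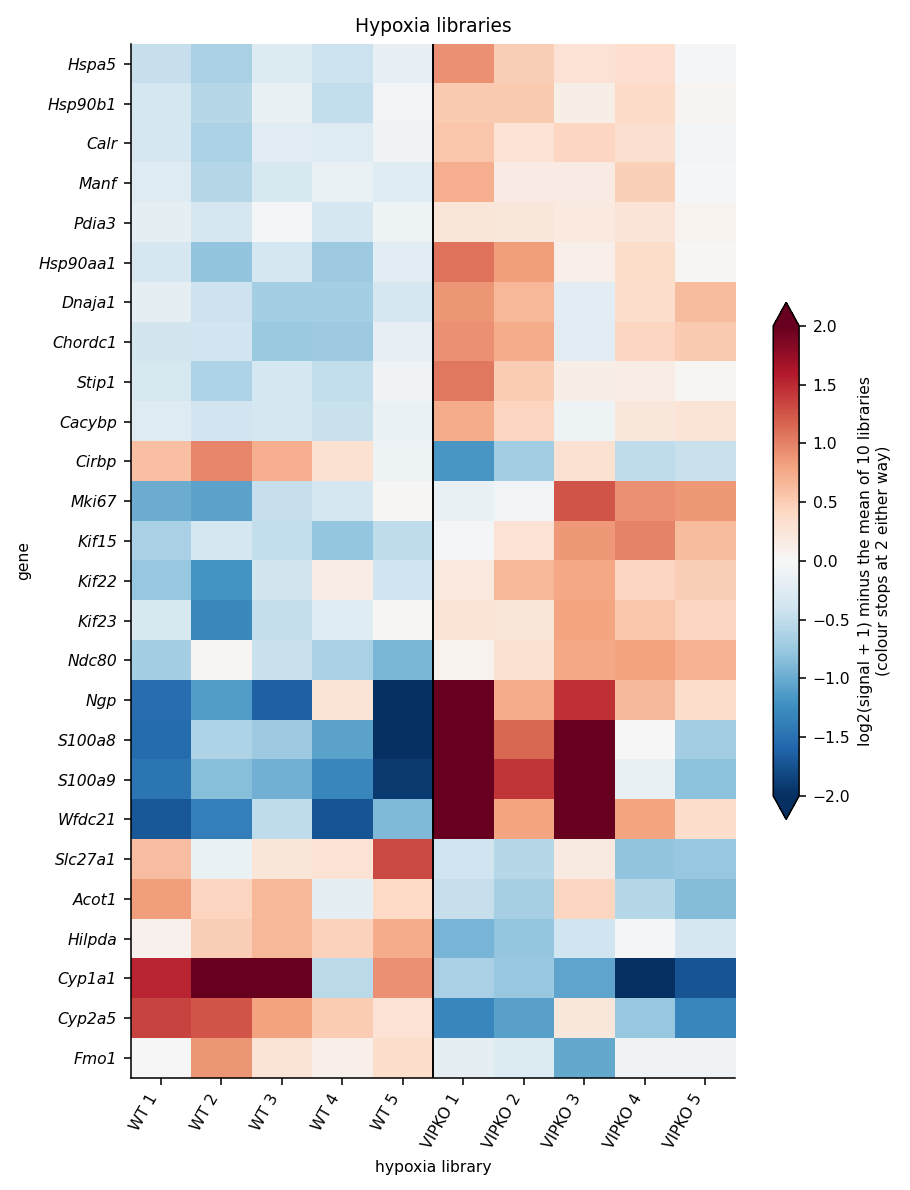
Log2(signal + 1) of each gene in the 10 hypoxia libraries, minus its mean over them (colour, ending at 2 either way), for chaperone, cell division, neutrophil, lipid and xenobiotic genes. S100a8 and S100a9 are highest in VIPKO 1 and next in VIPKO 3, Hspa5, Hsp90b1 and Hsp90aa1 are highest in VIPKO 1, and Mki67 is highest in VIPKO 3; VIPKO 4 is the library whose Vip signal goes against its label.

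The genotype difference in hypoxia was set beside that in normoxia, which shares no library with it. In normoxia 1873 genes passed (8.65%; 4.69% higher in VIPKO and 3.96% lower), against 350 in hypoxia. The mitochondrial ribosomal signal was 97.7 to 2075 in WT normoxia and 12034 to 27208 in VIPKO normoxia, without overlap, and with it as a covariate limma called 0 genes in normoxia (2102 at an unadjusted p under 0.05). Of the calls, 75 genes passed in both, which is 21.4% of the hypoxia calls and 4.00% of the normoxia calls; 70 had the same direction. The test of the difference itself, the interaction of genotype and oxygen, called 61 genes (0.282%), 29 with a positive and 32 with a negative difference, and 22 of the 350 hypoxia calls were among them.

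**Figure D5:**
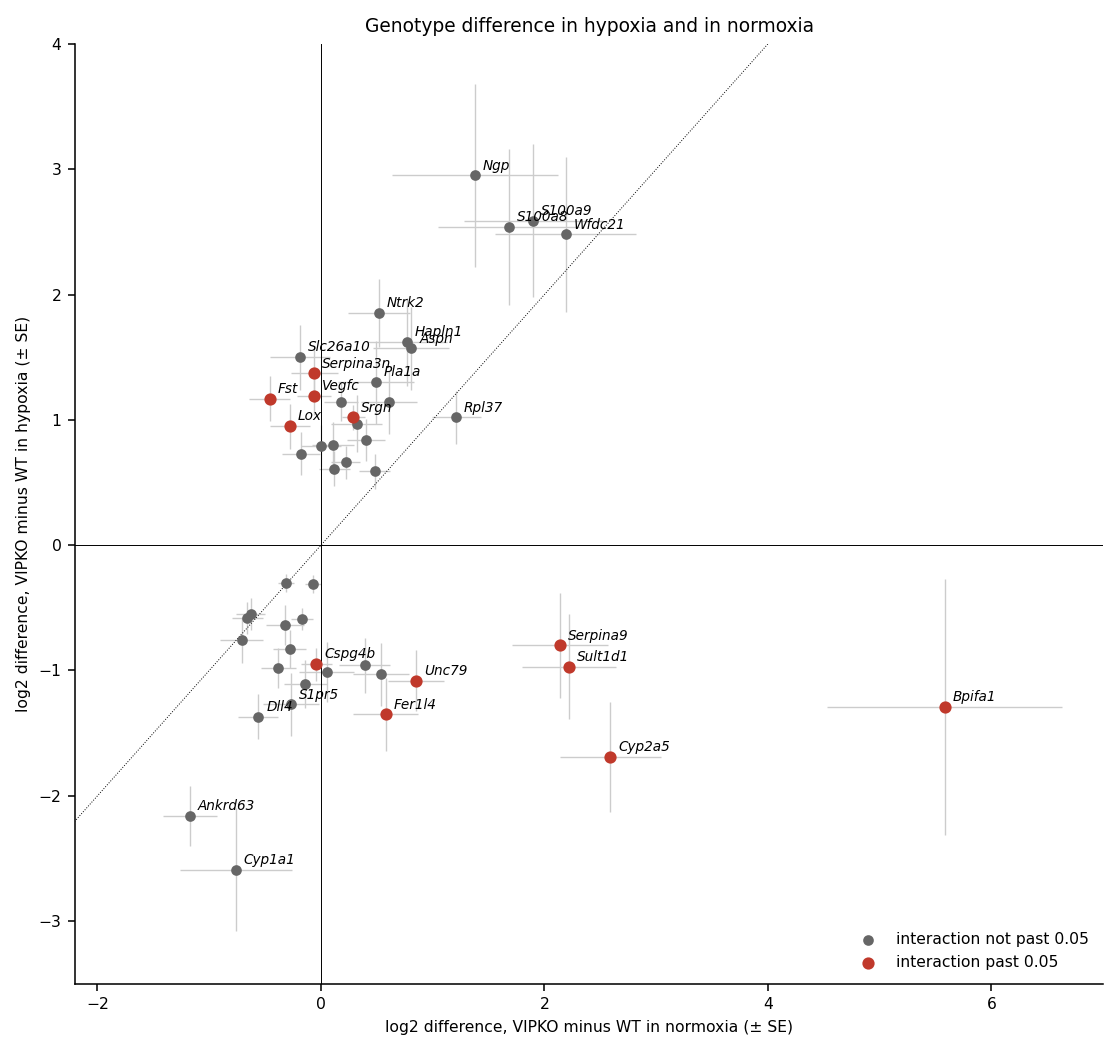
Log2 difference between VIPKO and WT in normoxia (x) and hypoxia (y), each ± SE, for the called named genes and those named for the interaction; the dotted line marks equal differences and red points passed the interaction test. Vegfc, Fst, Serpina3n and Lox lie near 0 or below on x and near 1 or above on y, and Bpifa1, Cyp2a5, Sult1d1 and Serpina9 lie far to the right and below 0.

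For 4 genes of secreted or matrix proteins the rise in hypoxia differed from the difference in normoxia by this test. Fst was 91.6 to 105 in WT normoxia and 55.5 to 86.4 in VIPKO normoxia. Its normoxia difference, -0.46 (adjusted p = 0.112), had the opposite sign from that in hypoxia but was not called. The Fst interaction was 1.63 (adjusted p = 0.0163). Vegfc was 192 to 346 in WT normoxia and 181 to 256 in VIPKO normoxia (interaction 1.26, adjusted p = 0.0179). Serpina3n (1.43, adjusted p = 0.0384) and Lox (1.23, adjusted p = 0.0397) followed. Fst was called whichever of the 20 libraries was left out and Vegfc in all but the fit without VIPKO normoxia 4 (adjusted p = 0.0567). Serpina3n lost its call in 11 of 20 such fits (adjusted p up to 0.115 without VIPKO normoxia 4) and Lox in 16 (up to 0.11, likewise).

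For 4 other genes the interaction was negative: they rose in normoxia and had negative differences in hypoxia that did not pass. Cyp2a5 was 82.1 to 608 in WT normoxia and 867 to 2332 in VIPKO normoxia, with an interaction of -4.28 (adjusted p = 0.0117) that passed in all 20 fits without 1 library. Bpifa1, an abundant secretory protein of the upper airway, was 56.3, 12.7, 11.7, 28.9, 1007 and 3.15 in WT normoxia and 541, 739, 5008 and 3000 in VIPKO normoxia, and 785 to 7844 and 583 to 1533 in WT and VIPKO hypoxia (interaction -6.87, adjusted p = 0.048). WT normoxia 5 was high for its group. Sult1d1, a sulfotransferase (-3.18, adjusted p = 0.0293), and Serpina9 (-2.94, adjusted p = 0.0397) had the same order. Bpifa1 lost its call in 15 of 20 fits without 1 library, Sult1d1 in 11 and Serpina9 in 14, with the highest adjusted p (0.14, 0.101 and 0.124) without VIPKO normoxia 4. Once the mitochondrial ribosomal signal was a covariate, limma called 0 genes for the interaction (2121 at an unadjusted p under 0.05). The differences themselves moved less: Fst 1.55 (adjusted p = 0.0736), Vegfc 1.18 (adjusted p = 0.0913), Cyp2a5 -4.05 (adjusted p = 0.0726) and Bpifa1 -6.17 (adjusted p = 0.183).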

How the data were processed

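RNA of whole lung was sequenced in 20 libraries, with 1 µg of RNA and a directional kit, per the labels' protocols. The authors deposited 1 table of normalized gene counts, used here as a signal whose normalization is not given in the sources used here; Partek and mm10 are named in the submitters' processing notes. No source used here gives the aligner or the counting strand. Of 30746 lines, 55 without a name (at most 0.0187% of the signal) were dropped. Genes with a signal of at least 10 in at least 4 libraries were tested on log2(signal + 1) with limma 3.58.1 (R 4.3.3), with 4 group means over all 20 libraries, a variance trend and Benjamini-Hochberg adjustment. A fold change on this scale understates that of low genes. The code was tested on simulated data. Depth was estimated from the smallest steps of the low values; in VIPKO hypoxia 2 only 40.3% of these came out whole (within 0.05). No count test was run. The rule for named genes took, among called genes whose hypoxia groups did not overlap and whose higher group averaged 50 or more, the 10 largest rises, the 10 largest falls and the 5 smallest p, up to 4 called genes of each list (2 by smallest p where none passed), and the 4 largest interactions each way; predicted, immune receptor and sex-linked genes were passed over. Other uncalled list members were added after their values were seen. The members and lists were chosen with earlier results of these data known. Loci are from GENCODE vM21 (1 locus for 20926 genes) and promoters from RefSeq, GRCm38.p6. Python 3.11.15, pandas 2.3.3, scipy 1.17.1 and matplotlib 3.10.9 were used.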

Additional observations from a re-analysis of the deposited data

Results flagged for a closer look

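In 8 of 94 groups of 5 libraries, 1 library lay far from the other 4. The cut-off is one that about 1 in 20 groups of independent values would pass. These groups share libraries and many hold genes named for their calls, so that rate need not hold for them. Vip was 106 in the library labelled VIPKO hypoxia 4 and at most 4.70 in the rest of its group. Fer1l4 was 92.6 and Unc79 743 in WT hypoxia 1. Sema3c was 14651 in WT hypoxia 4, Ngp 824 in VIPKO hypoxia 1, Fmo1 1658 in VIPKO hypoxia 3 and Slc26a10 1234 in VIPKO hypoxia 2. Mitochondrial ribosomal RNA was 7058 in WT hypoxia 5 and at most 1563 in the other WT hypoxia libraries.

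The genotype difference in hypoxia differed from that in normoxia for 12 named genes by the limma interaction test. The naming rule took the 4 largest interactions each way from this same test, so that number is no separate result. Of all 21658 genes 61 (0.282%) passed it, and 0 with the mitochondrial ribosomal signal as a covariate. It was more positive in hypoxia for Fst (1.63, adjusted p = 0.0163), Serpina3n (1.43, adjusted p = 0.0384), Vegfc (1.26, adjusted p = 0.0179), Lox (1.23, adjusted p = 0.0397) and Srgn (0.73, adjusted p = 0.0322). It was more negative for Bpifa1 (-6.87, adjusted p = 0.048), Cyp2a5 (-4.28, adjusted p = 0.0117), Sult1d1 (-3.18, adjusted p = 0.0293), Serpina9 (-2.94, adjusted p = 0.0397), Unc79 (-1.93, adjusted p = 0.0262), Fer1l4 (-1.93, adjusted p = 0.048) and Cspg4b (-0.91, adjusted p = 0.0453).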

How the results depend on the processing

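The 350 calls in hypoxia became 225 without the filter, 222 without the variance trend, 1926 with array weights, 9 in the 10 hypoxia libraries alone, 207 with length and GC content corrected, 26 with the mitochondrial ribosomal RNA covariate, 1241 with muscle and thymus covariates, 1065 without VIPKO hypoxia 3 and WT hypoxia 5, and 17 without VIPKO hypoxia 2 and 3, the library labelled VIPKO hypoxia 4 and WT hypoxia 5. That last alternative, the one with 286 calls and an Xist covariate (361 calls) were chosen after seeing the data. Leaving out 1 library gave 35 to 1339. The 1873 calls in normoxia became 5448 with array weights, 376 with length and GC content corrected and 0 with the mitochondrial covariate (limma, 2102 at an unadjusted p under 0.05). The 61 interaction calls became 12 without the trend, 2228 with array weights, 292 without VIPKO hypoxia 3 and WT hypoxia 5, 170 when VIPKO hypoxia 2 was left out too, 385 with muscle and thymus covariates, 0 with the mitochondrial covariate and 4 to 541 without 1 library. The 24 calls in the gene lists became 10 without the trend, 97 with array weights, 2 in the hypoxia libraries alone, 53 without VIPKO hypoxia 3 and WT hypoxia 5, 4 with the mitochondrial covariate, 54 with muscle and thymus covariates, 2 without the 4 libraries, and 4 to 50 without 1 library. The cause of these shifts was not tested. The Vip difference was -0.504 to 25.7 without 1 library. Differences that changed sign, none of them called, were Plin4 (0.24) and Eng (0.08) without the 4 libraries, Klrg1 (-0.30) with the mitochondrial covariate, and Pfkm (0.01 without VIPKO hypoxia 3 and WT hypoxia 5 or with VIPKO hypoxia 2 left out too, 0.00 without the 4 libraries). None of the 45 called named genes changed sign in any alternative.

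With a replicate block 2 genes passed in hypoxia (3175 at an unadjusted p under 0.05) and 1 of the list genes. Libraries of the same number did not deviate together (correlations -0.0761, 0.172, 0.296, -0.124 and -0.0668 for numbers 1 to 5, and 1 of 5 libraries correlated best with its own number), so the numbers were not taken to pair the samples. Depth limits low genes most in WT hypoxia 4, at 4.96 M reads.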

Other observations

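Lists assembled after the values were seen describe further groups among the called genes, and their counts support nothing by themselves. Of 19 genes of fatty acid oxidation and lipid droplets, all 19 had a negative difference (median -0.41) and 3 fell. Beside Hilpda these were Slc27a1, a fatty acid transporter (-0.94 ± 0.20, adjusted p = 0.0265), and Acot1, a thioesterase (-0.85 ± 0.22, adjusted p = 0.0495). Slc27a1 was 1268, 751, 979, 1015 and 2073 in WT hypoxia 1 to 5 and 627, 554, 940, 480 and 488 in VIPKO hypoxia 1 to 5. VIPKO hypoxia 3 lay among the WT values, and the highest value was that of WT hypoxia 5, the library with skeletal muscle RNA. Slc27a1 and Acot1 lost their calls in 5 and 8 of the 10 fits without 1 library, both of them without WT hypoxia 1 or 3, VIPKO hypoxia 2 or 5 or the library labelled VIPKO hypoxia 4, and Acot1 also without WT hypoxia 2 or 5 or VIPKO hypoxia 1 (adjusted p = 0.0518 to 0.0742 for Slc27a1 and 0.0669 to 0.122 for Acot1).

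Of 15 genes of HSP90 and its co-chaperones 6 rose (median 0.49), and the same number rose without VIPKO hypoxia 2 and 3 and WT hypoxia 5. Dnaja1, a co-chaperone, was 1599, 1364, 1146, 1136 and 1446 in WT and 3386, 2888, 1567, 2328 and 2833 in VIPKO (0.92 ± 0.16, adjusted p = 0.0146) and was called whichever of the 10 hypoxia libraries was left out. Of 20 ER chaperones and folding enzymes 5 rose and 1 fell (median 0.37), and 3 rose without VIPKO hypoxia 2 and 3 and WT hypoxia 5, where the fall was not called. The fall was that of Txndc5 (-0.35 ± 0.07, adjusted p = 0.0201), not called without WT hypoxia 3 or VIPKO hypoxia 2 (adjusted p = 0.0539 to 0.0647).

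All 22 kinetochore and mitotic motor genes had a positive difference (median 0.97 in hypoxia, 0.63 in normoxia) and 10 rose. Kif15, a spindle motor, was 38, 47.4, 42.9, 35.0 and 42.3 in WT and 59.6, 74, 111, 121 and 94.7 in VIPKO (1.10 ± 0.20, adjusted p = 0.0146). It was called in all 10 fits without 1 library. Of the 10 called genes, 5 were highest in VIPKO hypoxia 3, the library with thymus RNA, 4 in the library labelled VIPKO hypoxia 4 and 1 in VIPKO hypoxia 2. Without VIPKO hypoxia 2 and 3 and WT hypoxia 5, 5 of the 22 rose.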
